A study of Mus musculus with 2 samples.

Results

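The Mir29 family is the group of miRNA genes that make miR-29a, miR-29b and miR-29c. Its 4 members, Mir29a, Mir29b-1, Mir29b-2 and Mir29c, were taken by their GENCODE symbols from the 1973 gene rows of each table, with no use of their values. They were measured in the embryonic facial prominence, the buds of neural crest mesenchyme and covering epithelium that form the face and jaws. The embryos were of the mouse strain B6NCrl, healthy, at embryonic day 12.5 and of mixed sex. Small RNA below 30 bases was sequenced in 2 libraries, biological replicates of 1 group, with 120 embryos pooled for replicate 1 and 88 for replicate 2. Each value therefore averages many embryos and all cell types of the tissue, and no other tissue, stage or genotype was analysed here.

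The miR-29 miRNAs are known for holding down the mRNAs of the extracellular matrix. Their known targets include fibrillar collagens, elastin and fibrillin, and loss of miR-29 accompanies fibrosis in heart, lung and kidney. In cultured osteoblasts they act on collagen and osteonectin mRNAs, and in human cells on the enzymes that methylate DNA anew. A miRNA finds its targets mainly through its seed, the bases from position 2 to 8 of the mature strand, so miRNAs with the same seed can share targets.

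Each hairpin of the family gives a 3p arm, the strand that carries the miR-29 name, and a 5p arm. The 3p sequences are shown because they decide which reads can be traced to which gene. The seed is in capitals and is the same in all of them.
mmu-miR-29a-3p: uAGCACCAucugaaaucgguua
mmu-miR-29b-3p: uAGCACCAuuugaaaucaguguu
mmu-miR-29c-3p: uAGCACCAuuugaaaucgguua

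With positions counted from 1 at the 5′ end, miR-29a-3p and miR-29c-3p differed by 1 substitution, C10U (the base of miR-29a-3p first). Over their first 22 bases, miR-29c-3p and miR-29b-3p differed by 3, G18A, U21G and A22U (the base of miR-29c-3p first). Among 1738 mature sequences in the RefSeq table, this seed occurred in these 3 miRNAs and no other. The 5p arms did not carry it. Those of Mir29a, Mir29b-1 and Mir29c shared their own seeds with no other mature sequence in the table, and that of Mir29b-2 shared its seed with miR-6338.

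The hairpins are given with both mature arms in capitals, since the counts of each gene join both arms and any other read within its hairpin. All 4 members matched RefSeq on GRCm38.p6, the assembly that mm10 denotes. The RefSeq hairpins were identical to the GENCODE M21 transcripts of the genes.
Mir29a, chr6:31062660-31062747, minus strand: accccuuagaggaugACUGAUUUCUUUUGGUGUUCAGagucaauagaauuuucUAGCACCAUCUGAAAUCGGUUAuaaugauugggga
Mir29b-1, chr6:31063023-31063093, minus strand: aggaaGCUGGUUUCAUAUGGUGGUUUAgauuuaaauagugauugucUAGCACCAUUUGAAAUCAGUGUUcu
Mir29b-2, chr1:195037040-195037120, plus strand: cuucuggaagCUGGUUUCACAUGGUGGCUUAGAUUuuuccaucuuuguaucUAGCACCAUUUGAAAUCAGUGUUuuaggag
Mir29c, chr1:195037547-195037634, plus strand: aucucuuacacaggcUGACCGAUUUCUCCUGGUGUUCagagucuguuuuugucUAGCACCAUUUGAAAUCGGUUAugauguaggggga

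The genes form 2 clusters of 2. Mir29b-1 and Mir29a lie 275 bases apart on chromosome 6, and Mir29b-2 and Mir29c lie 426 bases apart on chromosome 1. In GENCODE M21 both genes of chromosome 1 lie wholly within the noncoding host gene A330023F24Rik and overlap an exon of it. On the opposite strand they overlap an exon of Cd46, a gene for a membrane cofactor of complement control. On chromosome 6, Mir29b-1 overlaps an exon of the noncoding gene Gm27019 by 2 bases, and Mir29a overlaps no other gene. There were 0 further miRNA genes of the tables within 10 kb of any member. The 2 most alike pairs of hairpins lay across the clusters. In a global alignment Mir29a and Mir29c were identical at 78.0% of columns and Mir29b-1 and Mir29b-2 at 73.2%. The neighbours Mir29a and Mir29b-1 reached 60.4% and Mir29b-2 and Mir29c 63.2%. The least alike pairs also lay across the clusters, Mir29a and Mir29b-2 at 58.8% and Mir29b-1 and Mir29c at 55.9%.

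The members differed in how much of the hairpin occurs elsewhere. The tables hold reads that map to several places in an entry of their own, outside the genes. The mature miR-29b-3p is the same at Mir29b-1 and Mir29b-2, so a whole read of it has at least these 2 places and no length of it singles out either gene. By contrast, the first 10 bases of miR-29a-3p were found in no other listed miRNA gene. For miR-29c-3p the shortest such start was 18 bases, since its first 17 bases are also those of miR-29b-3p. Of the 69 windows of 20 bases in the Mir29a hairpin, 0 were found at another listed miRNA gene. The Mir29c hairpin had 3 such windows of 69, Mir29b-1 had 9 of 52 and Mir29b-2 had 6 of 62. All 4 of the 5p arms lay outside the shared stretches. The search covered miRNA genes only, and the rest of the genome was not searched.

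**Figure D1:**
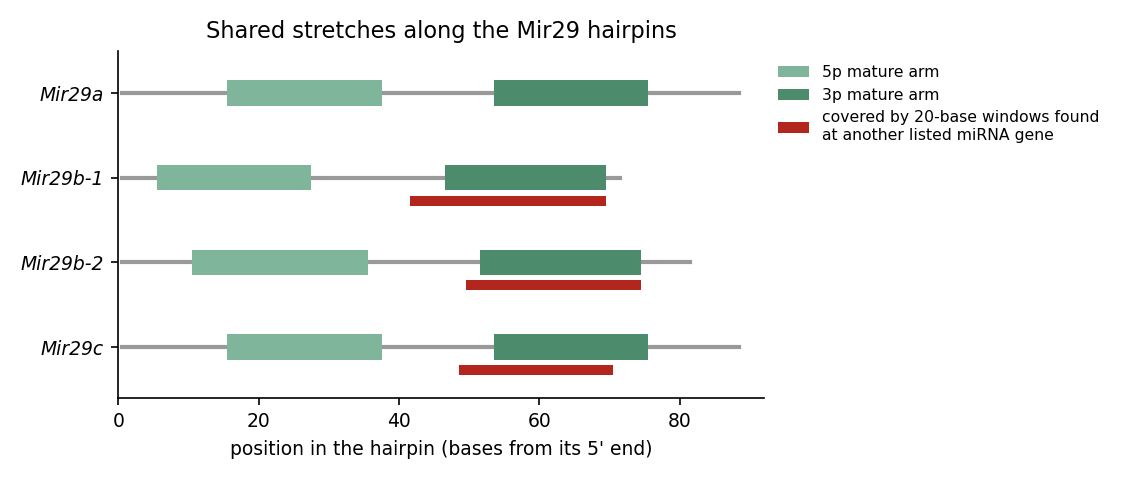
Hairpins of the 4 Mir29 genes drawn to scale, with position in bases from the 5' end on the x axis, mature arms as green boxes and stretches found at another listed miRNA gene as red bars. The red bars cover the whole 3p arm of Mir29b-1 and Mir29b-2 (23 bases), the first 17 bases of the 3p arm of Mir29c and none of Mir29a.

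Counts were modest for Mir29a and Mir29c and close to 0 for both Mir29b genes. Levels are given in CPM, the count on the gene's own strand per 1000000 own-strand counts over all genes. That sum was 4719337 in replicate 1 and 5929220 in replicate 2, of 11414919 and 12792420 reads. Reads that map to several places made up 26.0% of replicate 1 and 27.9% of replicate 2. Intervals are exact Clopper-Pearson intervals at the 95% level and cover counting error only. The detection minimum was 10 counts in each of the libraries. It was met by 395 of the 1973 gene rows and by 2 of the 4 members, Mir29a and Mir29c. Of the genes whose hairpin shares no 20-base stretch with another place 309 were detected (31.8%), against 86 (9.32%) of those that do share one.

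Mir29a, whose product is known to repress collagen mRNAs in fibroblasts, had 275 counts in replicate 1 and 311 in replicate 2. Its level was 58.3 CPM (interval 51.6 to 65.6) in replicate 1 and 52.5 CPM (46.8 to 58.6) in replicate 2, a mean of 55.4 ± 4.11 CPM (SD, n = 2). These intervals overlap, and replicate 1 is the higher by a small margin.

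Mir29c, whose product shares all but 1 base of its mature sequence with miR-29a-3p, had 235 counts in replicate 1 and 419 in replicate 2. Its level was 49.8 CPM (interval 43.6 to 56.6) in replicate 1 and 70.7 CPM (64.1 to 77.8) in replicate 2, a mean of 60.2 ± 14.8 CPM (SD, n = 2). Here the intervals do not overlap, and replicate 2 is the higher.

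Mir29b-1 had 5 counts in replicate 1 (1.06 CPM, interval 0.344 to 2.47) and 12 in replicate 2 (2.02 CPM, interval 1.05 to 3.54). Mir29b-2 had 0 counts in replicate 1, which allows up to 0.636 CPM when 0 is taken to allow 3 counts (upper end of the exact interval 0.782), and 6 in replicate 2 (1.01 CPM, interval 0.371 to 2.20). Both genes lay below the detection minimum, and both had their higher value in replicate 2. These values leave out any read of miR-29b-3p that was placed at both genes, so they put no limit on the amount of mature miR-29b. The tables do not give the arm from which the counted reads came. In bulk tissue, fewer cells with a miRNA and less of it per cell cannot be told apart.

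**Figure D2:**
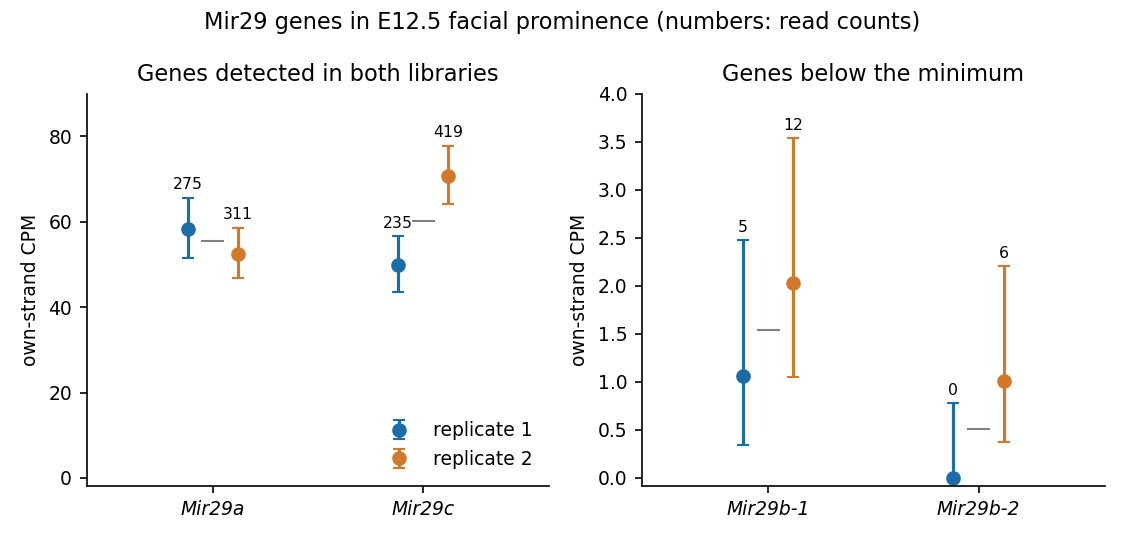
Level of each Mir29 gene in own-strand CPM (y axes, of different range in the 2 panels), with replicate 1 in blue and replicate 2 in orange. Bars are exact 95% counting intervals, grey lines are means of the libraries, and the number above each point is its read count. Mir29a and Mir29c lie between 49.8 and 70.7 CPM, and both Mir29b genes lie at or below 2.02 CPM.

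Together the 4 genes held 515 counts in replicate 1 (0.0109% of gene counts) and 748 in replicate 2 (0.0126%). This is 109 CPM (interval 99.9 to 119.0) and 126 CPM (interval 117 to 136), a mean of 117.6 ± 12.04 CPM (SD, n = 2). The cluster of Mir29a and Mir29b-1 contributed 59.3 CPM in replicate 1 and 54.5 CPM in replicate 2. That of Mir29b-2 and Mir29c contributed 49.8 and 71.7 CPM. Neither cluster led in both libraries. Opposite-strand reads were at 0 counts for all 4 genes in both libraries, including the 2 genes that overlap an exon of Cd46 on that strand.

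Among the 395 detected genes, Mir29c ranked 241 and Mir29a 247 by mean CPM. By library, Mir29c stood at rank 249 in replicate 1 and 232 in replicate 2, and Mir29a at 241 and 245. Mir29c lay 2.03-fold and Mir29a 2.21-fold below the median detected gene, which was at 122 CPM. Detected genes ranged from 2.01 to 69100 CPM, so both members sat in the lower middle of that range.

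**Figure D3:**
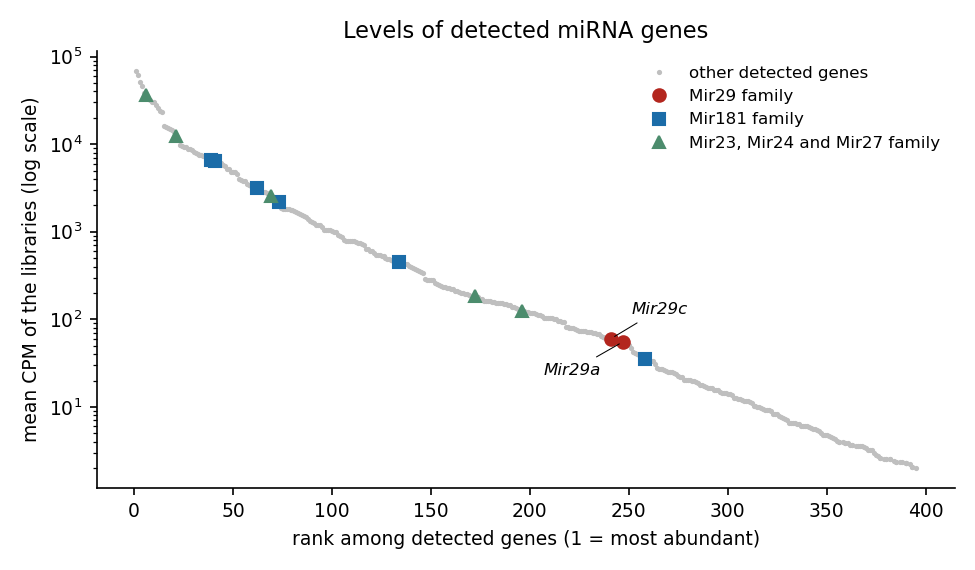
Mean CPM of the libraries (log scale) against rank for the 395 detected genes, with Mir29a and Mir29c in red, the Mir181 family in blue and the Mir23, Mir24 and Mir27 family in green. Mir29c (rank 241) and Mir29a (rank 247) lie below all genes of the other 2 families but Mir181b-1.

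The order of Mir29c and Mir29a was not the same in both pools. Both hairpins have 88 bases and both mature 3p strands 22, so the order is the same per length. In replicate 1 Mir29c had 0.855 counts for each count of Mir29a (interval 0.715 to 1.02), and in replicate 2 it had 1.35 (interval 1.16 to 1.57). The ratio in replicate 1 was 0.635 times that in replicate 2 (conditional exact interval 0.502 to 0.802). The means of 60.2 CPM for Mir29c and 55.4 CPM for Mir29a thus differ by less than the spread between the libraries. A ratio within a library does not depend on how the libraries are scaled.

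Each detected member had far more counts than its neighbour in the cluster. The counts of the Mir29b genes leave out any read of miR-29b-3p placed at both. The ratios therefore describe counts and not molecules. Mir29a had 55.0 counts per count of Mir29b-1 in replicate 1 (interval 23.3 to 171) and 25.9 in replicate 2 (interval 14.6 to 50.7). Mir29c had 69.8 counts per count of Mir29b-2 in replicate 2 (interval 31.8 to 191). In replicate 1, where Mir29b-2 had 0 counts, Mir29c was at least 63.2-fold higher by the lower end of the exact interval. Setting its count against 3 counts, the most that 0 is taken to allow in that library, gives 78.3. Between the Mir29b genes, replicate 2 gave 12 counts for Mir29b-1 and 6 for Mir29b-2, a ratio of 2.00 with an interval of 0.695 to 6.49. With these counts those 2 genes could not be ordered.

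Between the pools, Mir29a was close and Mir29c was lower in replicate 1. The log2 ratio of replicate 1 over replicate 2 was 0.15 for Mir29a (interval -0.09 to 0.39) and -0.51 for Mir29c (interval -0.74 to -0.27), a 0.705-fold level. For Mir29b-1 it was -0.93, with an interval of -2.79 to 0.67 that includes 0. For Mir29b-2, with 0 counts in replicate 1, the upper end of the interval was 0.09. A difference of either Mir29b gene alone was therefore not detectable with these counts. Summed, the Mir29b genes had 5 counts in replicate 1 and 18 in replicate 2, a log2 ratio of -1.52 whose interval, -3.30 to -0.04, lies just below 0. The sum over the family had a log2 ratio of -0.21 (interval -0.37 to -0.05).

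With 1 library per pool there is no test of these differences, and the intervals describe the reads of these libraries. The spread over all genes gives the scale. Of the detected genes, 13.9% (55 of 395) differed by 1.5-fold or more in either direction and 4.56% (18 of 395) by 2-fold or more, and 0 of the 2 detected members passed either limit. Scaled by all reads of the library in place of the gene counts, Mir29c passed 1.5-fold, with a log2 ratio of -0.67. Under that scaling 70 of the 395 genes (17.7%) passed, and the median log2 ratio of all of them was -0.17. The median absolute log2 ratio of detected genes was 0.23. A larger one than that of Mir29c was seen in 71 of the 395 genes (18.0%), and a larger one than that of Mir29a in 253 (64.1%). Within 30 to 120 CPM, a band set after the values were seen, 10 of 65 genes exceeded Mir29c. The common biological coefficient of variation between the libraries was 0.190 (edgeR).

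**Figure D4:**
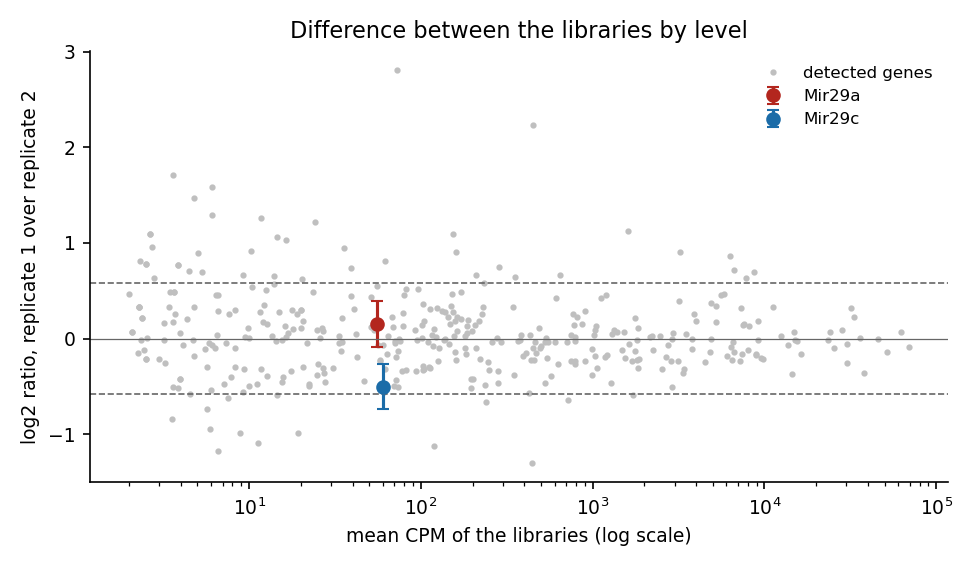
Log2 ratio of replicate 1 over replicate 2 (y axis) against mean CPM (x axis, log scale) for the 395 detected genes in grey, with Mir29a in red and Mir29c in blue. Error bars are exact 95% counting intervals and dashed lines mark 1.5-fold. Mir29a (0.15) and Mir29c (-0.51) both lie within the dashed lines, and the interval of Mir29c reaches past the lower one.

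A list of 24 other miRNA genes linked in the literature to the extracellular matrix or TGF-beta signalling sets the family in context. Of these, 22 were detected, 18 of them above both Mir29a and Mir29c and 4 below both. Of all 1973 gene rows, 395 were detected, and 240 of those (60.8%) lay above Mir29c, the higher of the detected members by mean. The list's detected genes had a median of 1148 CPM, against 122 CPM for all detected genes. That median describes only genes that passed the minimum. Of the 22, 1 differed by 1.5-fold or more between the libraries (4.55%, against 13.9% of detected genes). This was Mir133b, a gene of striated muscle, at 12.9 and 25.6 CPM in replicates 1 and 2. The shares are not at like abundance, given the list's higher median. Among the 277 genes with at least 100 counts in both libraries, 22 (7.94%) passed 1.5-fold.

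Mir21a, whose product is known to favour fibrosis, had 6617 CPM in replicate 1 and 7785 CPM in replicate 2. Its mean was 130.1 times that of Mir29a. Mir214 of skeletal mesenchyme had 45630 and 45910 CPM in replicates 1 and 2, and Mir140 of cartilage 15199 and 14466 CPM. These abundant genes of matrix-rich tissue overlap nowhere with the range of Mir29a or Mir29c.

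Members of the Mir30 family, known in heart to repress the mRNA of connective tissue growth factor, spread over a wide range. Mir30e had 23473 and 23652 CPM in replicates 1 and 2, whereas Mir30b had 61.0 and 82.1 CPM and Mir30c-1 had 57.4 and 81.3 CPM. Mir30b and Mir30c-1 thus lay close to Mir29c in level and, like it, had the higher value in replicate 2. Mir30a (7984 and 7176 CPM in replicates 1 and 2), Mir30d (5828 and 4617 CPM) and Mir30c-2 had theirs in replicate 1. The genes below both Mir29 members were Mir26a-2 (42.3 ± 4.09 CPM), Mir30c-2 (24.9 ± 1.08 CPM), Mir133b (19.3 ± 8.99 CPM) and Mir26a-1 (8.33 ± 0.389 CPM; SD, n = 2 each). Of the 24 genes of the list, 9 share a 20-base stretch with another miRNA gene, among them all 4 of these. Mir30c-1, Mir101a and Mir101b, which lay above both Mir29 members, share one too, as does Mir29c.

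The Mir181 family and the Mir23, Mir24 and Mir27 family are likewise built of paralogous clusters, with some mature sequences shared between places. Their most abundant genes are not among those with a mature sequence also at another gene. These are Mir181c and Mir181d (means of 6492 and 6634 CPM) and Mir23a and Mir23b (12409 and 36095 CPM). Mir23a and Mir23b do share a stretch with another miRNA gene. The Mir29 sum leaves out any read of miR-29b-3p placed at both Mir29b genes. The sums of the other families likewise leave out any read of a shared mature sequence placed at several genes. Such sequences occur at Mir181a-1, Mir181a-2, Mir181b-1, Mir181b-2 and Mir24-2. How far this lowers each sum was not tested. The Mir29 family held 109 CPM in replicate 1 and 126 CPM in replicate 2, against 18129 and 19710 CPM for the Mir181 family, which is 166 and 156 times as much. The 5 matched genes of the Mir23, Mir24 and Mir27 family held 51177 and 51549 CPM, which is 469 and 409 times as much as the Mir29 family. These differences were not tested, since the values come from the same 2 libraries.

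Detection differed among genes by how many of their mature arms are shared. In the tables, 53 genes had some but not all of their RefSeq mature sequences also at another gene, as both Mir29b genes do, and 40 of them (75.5%) were detected. By mean CPM, Mir29b-1 ranked 41 and Mir29b-2 43 of the 53, whose median was 34.8 CPM. The families compared hold 5 such genes, all detected. They are Mir181b-2 (3154 CPM on average), Mir181a-1 (2157), Mir181a-2 (447), Mir24-2 (126) and Mir181b-1 (34.8). Of the 829 genes with no mature sequence at another gene, 310 (37.4%) were detected, and of the 34 genes with all of theirs at another gene, 7 (20.6%). How far the reads placed at several genes lower the Mir29b counts was not tested.

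The genes whose pair of levels lay nearest to each detected member were found by distance on the log2 CPM scale over the 2 libraries. For Mir29a they were Mir668 (54.9 and 51.4 CPM in replicates 1 and 2, distance 0.09), Mir6540 (distance 0.16) and Mir1298 (distance 0.16). For Mir29c they were Mir615 (48.9 and 72.2 CPM in replicates 1 and 2, distance 0.04), Mir33 (distance 0.15) and Mir302c (distance 0.20). Mir615 lies at a Hox locus, Mir33 in a gene of lipid regulation and Mir302c in a cluster of early embryonic cells. With 2 libraries this likeness is one of level and of a single difference.

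Markers of the labelled tissue were present. The 6 genes of mesenchyme and cartilage were all detected and held 64669 CPM in replicate 1 and 64166 CPM in replicate 2. The 7 genes of epithelium were all detected and held 30805 and 35800 CPM. Mir126a of endothelium stood at 29030 and 27230 CPM in replicates 1 and 2. The 3 matched genes of blood held 489 and 610 CPM, and 1 of 4 matched genes of striated muscle was detected, the list holding 1068 and 1472 CPM. Mir122 of liver stood at 13.8 and 13.5 CPM, and of 5 matched genes of neurons 1 was detected, though all 5 share a stretch with a copy. The 2 genes of smooth muscle were both detected and held 12762 and 16558 CPM. The summed levels of the smooth muscle, striated muscle, blood, and epithelial lists were higher in replicate 2, with log2 ratios of -0.38, -0.46, -0.32 and -0.22. Those of mesenchyme and cartilage (0.01), liver (0.03), endothelium (0.09) and neurons (0.55) were not. The neuron sum rests on 83 counts in replicate 1 and 71 in replicate 2 (interval of the log2 ratio 0.08 to 1.03). Most counts of the mesenchyme and cartilage list came from Mir214 (log2 ratio -0.01). Its Mir199a-1 (-0.36), Mir199a-2 (-0.33) and Mir199b (-0.13) were higher in replicate 2, and its Mir140 (0.07) and Mir455 (0.22) in replicate 1. Within the epithelial list Mir200a was higher in replicate 1 (log2 ratio 0.42). The part of any list in the value of Mir29c, itself higher in replicate 2, was not tested.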

How the data were processed

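Small RNA was sequenced in 2 libraries of 1 group. The authors deposited raw whole-number read counts per miRNA gene for each library, from an alignment to mm10 with GENCODE M4, per the library descriptions deposited with the tables. The aligner, counter and trimming are not given in the sources used here. The first count column is the sum of the other 2. The column with 96.8% and 96.7% of reads on genes in replicates 1 and 2 was taken as the gene's own strand. Unmapped, multiply mapped and unassigned reads were kept out of the sums. Unmapped reads were 25.7% and 19.4% of all reads, and reads outside genes 5.57% and 4.72%.

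Symbols and positions come from GENCODE M21 (1894 of 1973 identifiers matched without version numbers), so gene bounds in M4 may differ. Sequences come from RefSeq, GRCm38.p6. The members and lists were chosen with earlier results of these data known. Named genes are the members, the 3 nearest detected genes to each, genes within 10 kb, genes sharing a seed, and the lists. Ratios and intervals used SciPy 1.17.1, alignments Biopython 1.88, and spread and scaling edgeR 4.0.16 and DESeq2 1.42.0 (R 4.3.3). The ratio and the spread estimate were tested on simulated data. Replicates are separate pools. No p-value was computed, since 1 group gives no contrast. How well CPM compare different miRNAs was not tested.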

Additional observations from a re-analysis of the deposited data

How the results depend on the processing

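The family's mean of 118 CPM moved beyond the SD of the libraries with 3 other denominators: 51.8 with all reads, 72.8 with genes plus reads that map to several places, and 206 without the 10 most abundant genes. It ranged from 109 to 126 CPM with either replicate left out. The log2 ratio of Mir29c over Mir29a, 0.10 on average, ranged from -0.23 to 0.43 with either replicate left out and so changed sign. Of the members, 0 passed 1.5-fold between the libraries under 4 of the alternatives that keep that fold (both strands, TMM, DESeq2 size factors, 100 counts) and at 2-fold. With all reads as denominator 1 of 2 passed (Mir29c), where 70 of 395 genes (17.7%) did, and with a minimum of 1 count 1 of 3 (Mir29b-1), where 201 of 631 genes (31.9%) did. Over all genes, 55 of 395 (13.9%) passed 1.5-fold, against 22 of 277 (7.94%) with 100 counts and 18 of 395 (4.56%) at 2-fold. Without genes that share a stretch, Mir29a ranked 196 of 309, and Mir29c shares one and has no such rank. The results for single genes moved in 9 of 41 settings, namely that rank, which came from a shorter list, and levels with another denominator. A level counted as moved when it differed from the main value by at least the SD of the libraries. Leaving out 1 of 2 libraries cannot give such a difference, so those settings could not move a level. No paired analysis was possible because there is 1 group. Both Mir29b genes had at most 12 counts, which leave out any read of miR-29b-3p placed at both genes.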
